A study of Mus musculus with 30 samples.

Results

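The genes described here encode proteins of the small (40S) subunit of the cytosolic ribosome. They were chosen by symbol, as rows of the deposited expression table whose gene name has the form of a cytosolic ribosomal protein, and 30 of the 14475 genes in the table were found. All 30 are Rps genes. Genes of the large subunit, and so the comparison of the subunits and the paralog pairs of Rpl genes, are not analysed here. Of the paralog pairs only Rps27 and Rps27l are described.

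The small subunit binds the messenger RNA, holds the decoding centre where codons are read, and is built in the nucleolus from 18S ribosomal RNA and its proteins. Each of these proteins is made from a gene active in nearly every cell, and most of the mRNAs begin with a run of pyrimidines (a 5′ terminal oligopyrimidine tract) through which growth signalling controls their translation. Mammalian genomes also hold many processed pseudogenes copied from ribosomal protein mRNAs. In the colon, ribosome production is known to be high in the dividing cells of the crypt.

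Total RNA of female mice, taken from ascending or descending colon, was depleted of ribosomal RNA and sequenced as single 50-base reads, and the values are FPKM (fragments per kilobase of transcript, scaled to the mapped reads of the library). Mutant mice, labelled TM-DKOAsc in both regions with a suffix that the labels do not define, were C1galt1 f/f with VillinCre-ERT2, a Cre active in gut epithelium after tamoxifen, and C3GnT-/- (C3GnT is encoded by B3gnt6). Controls were WT littermates. The genotype is designed to remove enzymes that extend mucin-type O-glycans, with C1galt1 removed where the villin promoter drives Cre and C3GnT in the whole animal. Per the protocols, tamoxifen was given to mutants or WT littermates at 0.5 mg (about 20 mg/kg) daily for 5 days, and mice were analysed 5 or 10 days later, without a statement of which applied to a library. The 3 cages were cage A (C57BL/6 Background, 3.4 months old, 2 controls and 3 mutants per region), cage B (Mixed BL/6-129SvJ, 2.6 months, 3 controls and 2 mutants) and cage C (Mixed BL/6-129SvJ, 3.2 months, 2 controls and 3 mutants), so that cage, background and age cannot be told apart. Each region had 7 control and 8 mutant libraries, all from mice with the same microbiota. The labels do not say whether libraries come from separate mice, and p-values measure the spread between libraries.

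The 30 genes stood in the table at very different levels, and the level followed how much of a gene's coding sequence is its own. Every 50-base window of each coding sequence, the length of a read, was searched in all other annotated mouse transcripts (GENCODE M21, exact match on both strands). The share of windows found in no other gene was 0% in 10 genes, and the highest among the genes described below was 91.9%, in Rps3. The windows below show what is shared, each being a stretch of coding sequence that is also present, letter for letter, in the stated number of other genes. Rps23, at the decoding centre (chr13:90922958-90924950, GRCm38), has bases 243 to 292 in 12 other genes, 9 of them pseudogenes. Rps6, the substrate of S6 kinase (chr4:86854660-86857412), has bases 471 to 520 in 13 other genes, all pseudogenes. Rps2, at the mRNA entry site (chr17:24718116-24721929), has bases 653 to 702 in 33 other genes, all pseudogenes. Rps3, at the mRNA entry channel (chr7:99477896-99483738), is given for contrast, with bases 263 to 312 in 1 other gene, a pseudogene.
Rps23: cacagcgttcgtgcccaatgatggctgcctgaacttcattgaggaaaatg
Rps6: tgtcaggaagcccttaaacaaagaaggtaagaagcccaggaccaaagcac
Rps2: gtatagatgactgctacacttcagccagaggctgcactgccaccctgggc
Rps3: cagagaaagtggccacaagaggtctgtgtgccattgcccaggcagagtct

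Pyrimidine tracts were looked for at the start sites. RefSeq (GRCm38.p6) start-site sequence was matched for 22 of the 30 genes, and the transcribed strand from 10 bases before to 20 after the start was searched for the longest run of C or T. A run of at least 8 was present in 9 of 22 genes (40.9%), against 11.2% of all 27025 promoters in the table, with a median longest run of 6.5 bases against 4. The search did not require a run to begin at the start site, so a run found here is not by itself a terminal tract. The windows below show, in capitals, the longest run in 4 genes with a run of at least 8 and in 2 genes of high level without one. Rps9 and Rps26, also of high level, each have a run of 9. Counted from the start as base 1, the run began at base 9 in Rps12 and 4 in Rps26. It began before the start in Rps9 (-6), Rps10 (-3), Rps18 (-2) and Rps6 (-1). Absence in this window says only that these letters are not there. Rps10, Rps12 and Rps18 are proteins of the head, and Rps6 lies in the body. Rps15 lies in the head close to the decoding site and Rps3 at the mRNA entry channel.
Rps10 (chr17:27635225-27635254, minus strand, run of 13): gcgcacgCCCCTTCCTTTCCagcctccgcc
Rps12 (chr10:23787190-23787219, minus strand, run of 11): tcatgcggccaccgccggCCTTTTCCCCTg
Rps18 (chr17:33955646-33955675, minus strand, run of 11): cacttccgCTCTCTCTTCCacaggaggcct
Rps6 (chr4:86857348-86857377, minus strand, run of 10): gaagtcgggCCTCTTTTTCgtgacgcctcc
Rps15 (chr10:80292421-80292450, plus strand, run of 3): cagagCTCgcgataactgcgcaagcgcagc
Rps3 (chr7:99483690-99483719, minus strand, run of 2): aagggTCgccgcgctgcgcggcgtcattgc

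Levels are compared as FPKM, which is per length. The highest mean belonged to Rps15 at 293 ± 92.1 FPKM (SD over 30 libraries, range 130 to 490). Rps14, of the platform that holds the mRNA exit, followed at 231 ± 80.8 FPKM. Rps26, next to the mRNA exit, stood at 83.8 ± 29.6 FPKM and Rps3 at 67.9 ± 20.9. The ranges of Rps15 and Rps14 over libraries overlapped, as did those of Rps26 and Rps3. At the other end, Rps23 averaged 1.31 ± 0.706 FPKM, Rps16 (whose tail reaches the tRNA in the P site) 1.63 ± 0.688, Rps13 2.11 ± 0.846, Rps29 2.12 ± 0.990 and Rps6 2.23 ± 0.762. The means of Rps15 and Rps23, proteins present in equal number in a ribosome, differed 223.8-fold in this table. Rps23 was listed at 0 in 1 library, ascending mutant A2.

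Genes with at least 25% own coding windows (9 genes, called distinct here) had a median mean level of 83.8 FPKM, from 31.8 to 293. Genes with some but fewer own windows (11, partly shared) had a median of 11.2, from 2.80 to 31.4. Genes with none (10, shared) had a median of 2.53, from 1.31 to 19.8. The levels of distinct and partly shared genes did not overlap, with Rps27l at 31.8 just above Rps2 at 31.4, and Rps28 was the highest shared gene. The boundary of 25% was set after the values were seen, so the classes describe and are not tested. Across the 30 genes, Spearman's rho between mean level and own coding share was 0.883. For the own share over the whole transcript, untranslated ends included, it was lower, at 0.570. Between level and the number of other genes that share a window it was -0.487. Between level and the length of the transcript searched it was -0.051 (genes share their libraries, and no p is given). The sources used here do not say how reads that match several genes were counted, and the part of counting in these levels was not tested.

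**Figure D1:**
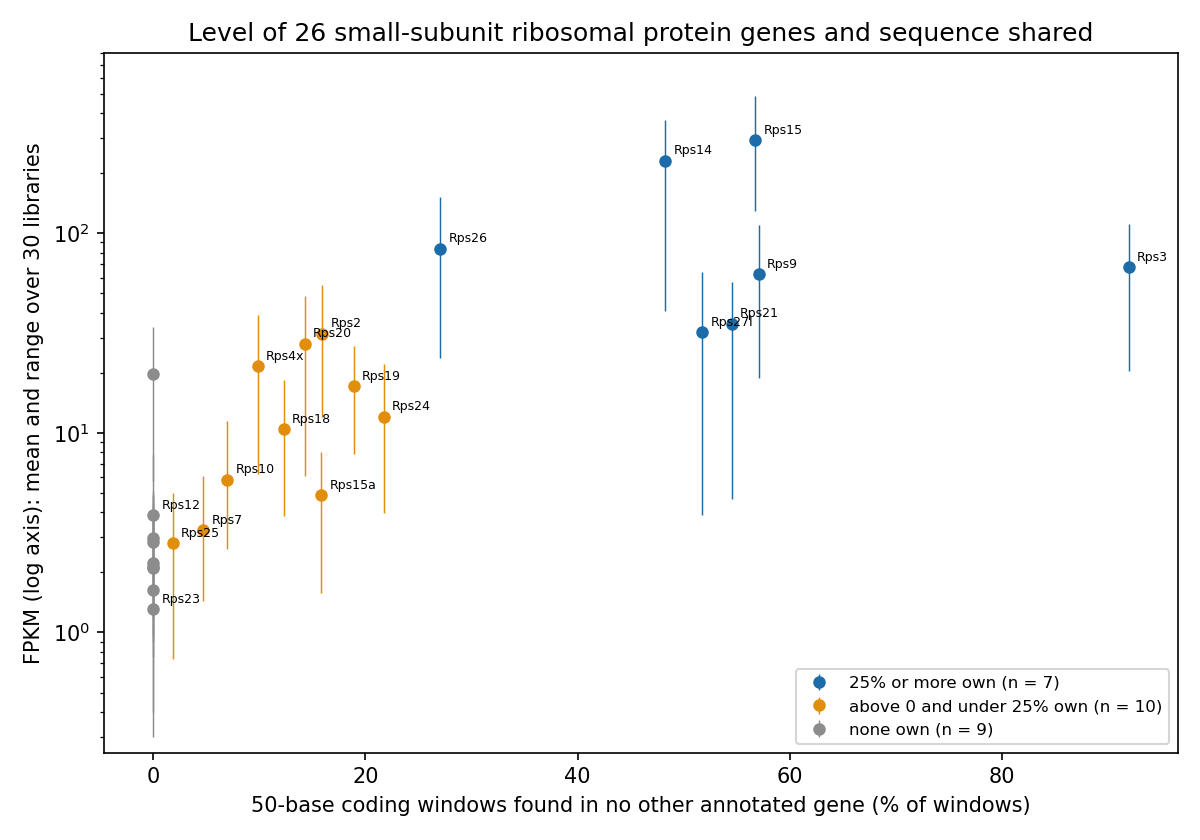
Mean FPKM over 30 libraries (log axis; bars from the lowest to the highest library, with values under 0.3 drawn at 0.3) against the percent of 50-base coding windows found in no other annotated gene, for 26 of the 30 genes in 3 classes. The 7 genes shown with at least 25% own windows lie between 31.8 and 293 FPKM, and the 9 with none lie between 1.31 and 19.8.

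Rps27 and Rps27l show the pattern within a pair. Both genes encode zinc-finger proteins of equal length, and Rps27l is known as a p53 target. Over 252 aligned coding bases they differ at 60 (76.2% identity), and of 53 codons that differ only 3 change the residue. The longest identical run was 11 bases, far under the length of a read. The first 60 coding bases are shown with the bases that differ in capitals (Rps27, chr3:90212522-90213651; Rps27l, chr9:66946086-66949516).
Rps27: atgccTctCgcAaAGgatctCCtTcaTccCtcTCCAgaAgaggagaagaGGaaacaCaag
Rps27l: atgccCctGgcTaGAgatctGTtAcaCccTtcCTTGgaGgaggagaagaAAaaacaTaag

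Rps27 averaged 2.84 ± 0.915 FPKM (range 0.90 to 4.88) and Rps27l 31.8 ± 13.0 (range 3.86 to 63.8). Rps27l was the higher of the pair in every library, by 1.56 to 46.7 times. Rps27 has no coding window of its own, whereas 51.7% of the Rps27l coding windows are its own. Over the whole transcript, Rps27 windows occur in 9 other genes, 8 of them pseudogenes. In descending mutant C1, Rps27l stood at 3.86 FPKM, against 24.0 to 63.8 in the other descending mutants, while Rps27 stood at 2.47, within their range of 1.96 to 4.13. Rps27a, which is translated as a fusion with ubiquitin, averaged 2.97 ± 0.965 FPKM and also has no own window.

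By place in the subunit, the 14 genes of the head had a median level of 8.12 FPKM (1.63 to 293) and the 16 of the body and platform 16.8 FPKM (1.31 to 231). The ranges overlapped almost wholly. At the depth estimated for each library from the steps between its low values, the median library held about 10.0 reads of Rps23, 11.7 of Rps16 and 7.1 of Rps29, but 1085 of Rps15 and 2764 of Rps14. Counting error is therefore large for the lowest genes.

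Of the whole series, these facts bear on the genes. The files give no depth. The steps between low values imply 1.47 to 8.87 M (10 to the power 6) counted reads per library, lowest in ascending mutants A1, A2 and A3 (1.47 to 1.55 M), with 75.3% to 84.4% of low values within 0.2 of a whole step. C1galt1, for which the sources do not say how much of the value comes from the floxed part, was at 26.7 ± 6.64 FPKM (SD, n = 8) in ascending mutants and 35.3 ± 9.44 (n = 7) in ascending controls, and at 28.2 ± 7.16 and 32.9 ± 3.47 FPKM in descending mutants and controls, with ranges that overlapped in both regions. B3gnt6 reached 0.53 FPKM at most in ascending mutants and 0.11 to 19.5 in controls, but was also at 0 to 0.43 in descending controls. The colonocyte markers summed to 2375 to 16514 FPKM per library, and no marker in the table was at 0 in all libraries of a group.

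The libraries differed in how much signal the 30 genes drew. Their summed FPKM made up 0.207% to 0.787% of the table. It averaged 1018 ± 287 FPKM in ascending controls, 1191 ± 316 in ascending mutants, 1439 ± 390 in descending controls and 1432 ± 499 in descending mutants (SD, n = 7, 8, 7 and 8). The lowest library, descending mutant C1, held 416 FPKM, while the other descending mutants ran from 1185 to 2095. Ascending mutant B1 held 540, and ascending control B1 held 690. The highest were descending mutant A3 at 2095 and descending control A1 at 1976.

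The low libraries were not low in all of these genes alike. In descending mutant C1 each of the 9 distinct genes lay under all other descending mutants, by a median of 4.83 times from their median (2.36 to 9.89 times). Rps21 stood at 4.67 FPKM in that library against 25.1 to 57.3 in the others, and Rps15 at 146 against 284 to 490. Of the 10 shared genes only 3 lay under all others there, and their median ratio was 1.04. Rps19, Rps24 and Rps26, mutated in Diamond-Blackfan anaemia, stood at 10.1, 3.95 and 23.6 FPKM in that library, each under all others of the group. In ascending mutant B1 the 9 distinct genes again lay under all other ascending mutants, by 2.14 to 3.35 times, while 1 of 10 shared genes did. The same libraries were low in short transcripts of other genes. The 242 other genes under 1 kb had a median deviation of -0.87 on the log2 scale in descending mutant C1 and -0.47 in ascending mutant B1, whereas the 3618 over 6 kb had 0.19 and -0.0042. Ascending control B1 also had the highest smooth muscle marker sum of the ascending libraries, at 432 FPKM against 20.1 to 112 in the others. The part of these in the ribosomal protein values was not tested.

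**Figure D2:**
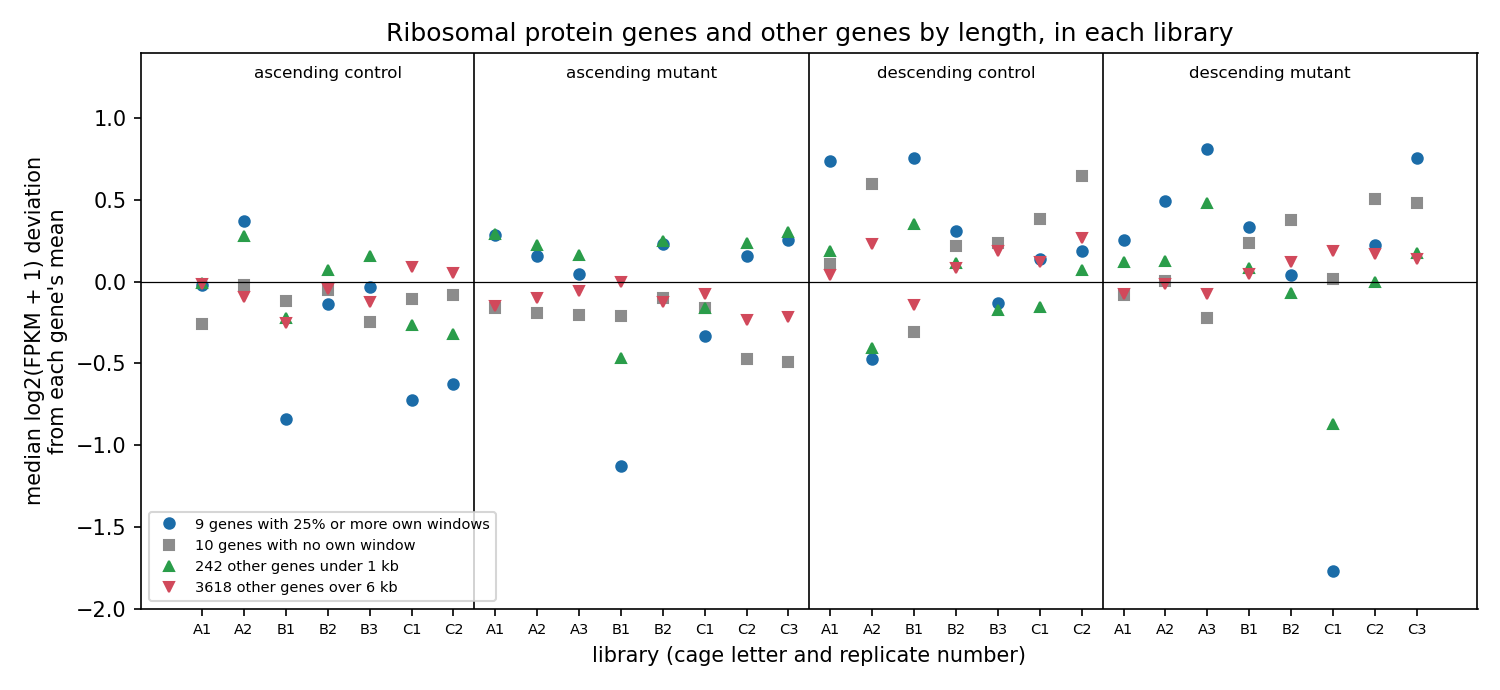
Median deviation from each gene's mean over 30 libraries (log2 of FPKM + 1) in each library, for 9 distinct ribosomal protein genes, 10 shared ones, 242 other genes under 1 kb and 3618 over 6 kb. In descending mutant C1 the distinct genes lie at -1.77, the short genes at -0.87 and the shared ribosomal protein genes at 0.017.

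Distinct genes moved together over libraries, while pairs of a distinct and a shared gene went both ways. Over 30 libraries the median Spearman's rho was 0.821 for the 36 pairs of distinct genes (0.536 to 0.971), 0.440 for the 45 pairs of shared genes (-0.283 to 0.702), and 0.044 for the 90 pairs with one of each (-0.718 to 0.938). These are descriptions over libraries that share region, cage and depth. Rps28, a shared gene of the head, had the highest level of its class and lay at 5.71 FPKM in descending mutant C1 against 16.7 to 33.8 in the other descending mutants, as the distinct genes did.

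**Figure D3:**
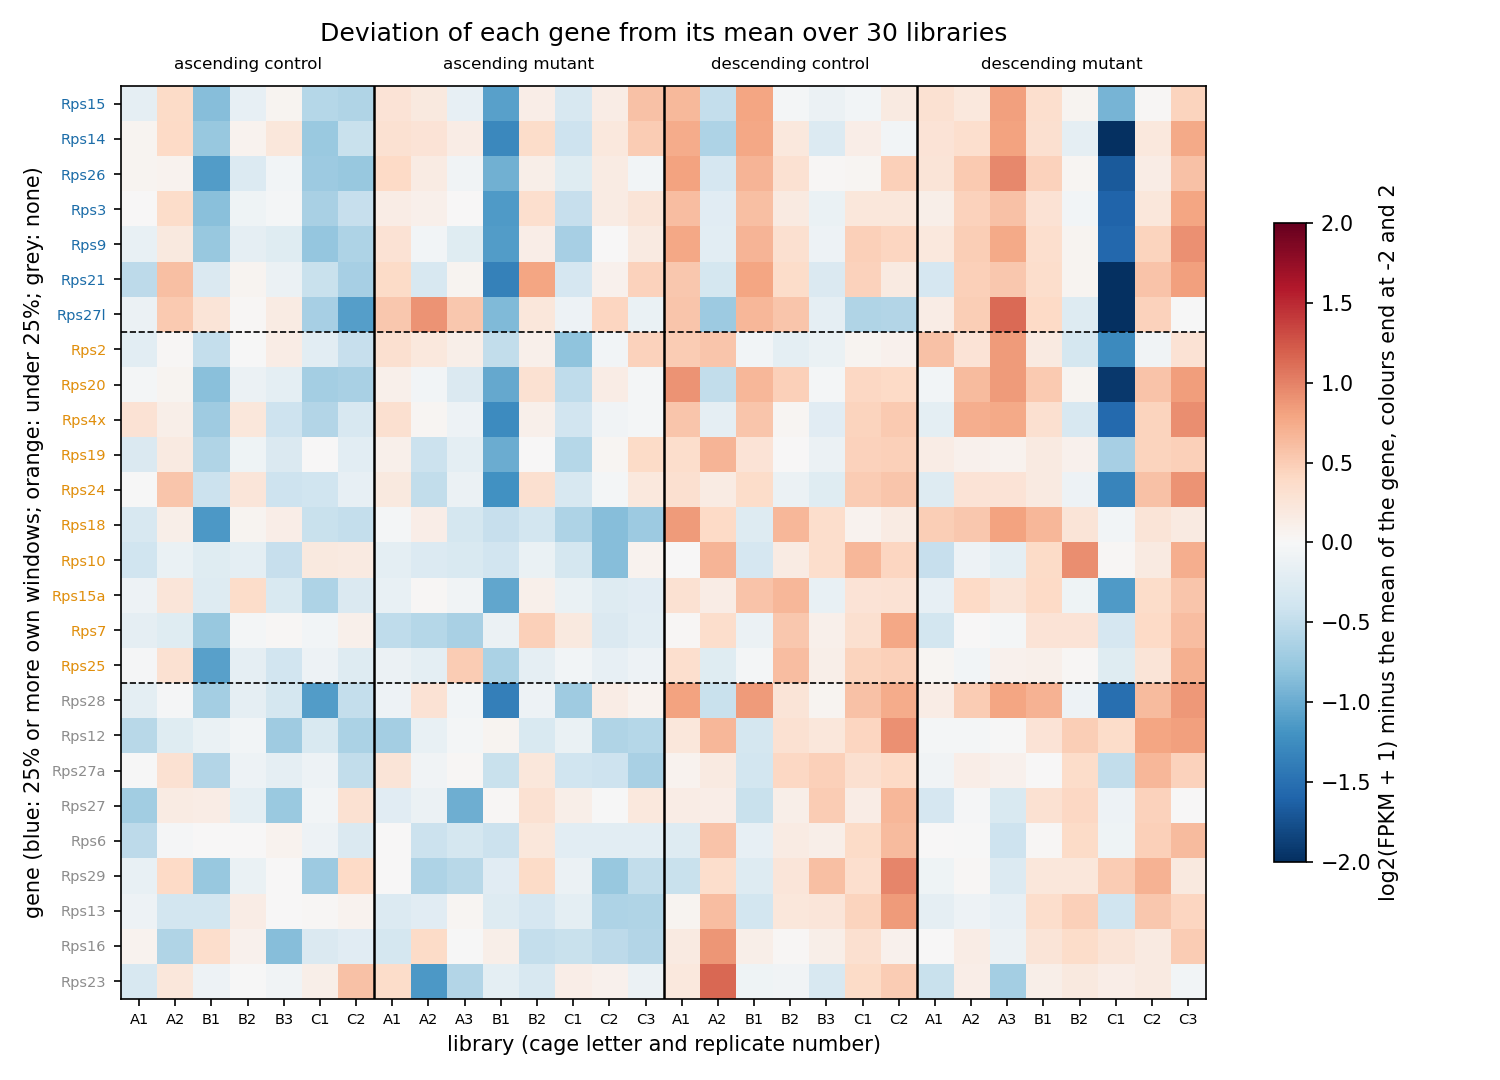
Deviation of each gene from its own mean (log2 of FPKM + 1, colours from -2 to 2) for 26 of the 30 genes in 30 libraries, grouped by region and genotype, with genes ordered by class and level. The distinct genes at the top are low together in ascending mutant B1 and descending mutant C1, and most of the shared genes at the bottom are not.

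The ascending colon was compared with the descending colon in control mice to see how these genes differ along the colon. All 30 genes had lower values in the ascending colon (29 with median-of-ratios scaling, under which Rps27l was at 0.07), and 11 passed the test (limma on log2(FPKM + 1) with cage as covariate, adjusted p under 0.05 by Benjamini-Hochberg over all genes tested). That is 36.7% of the genes, against 25.1% called lower and 12.8% called higher among 12515 genes tested. None of the 30 was called higher. Of all 12515 genes tested, 8177 had lower values, and genes that move together over libraries are not separate observations. The median log2 difference was -0.44, against -0.14 for all genes tested. With these values from whole tissue, fewer cells of a type and less RNA per cell cannot be told apart.

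Rps28 and Rps12, both of the head, were among the genes that fell. Rps28 stood at 7.78, 13.9 and 17.7 FPKM (lowest, median and highest) in the 7 ascending and 13.0, 27.6 and 33.5 in the 7 descending controls, a log2 difference of -0.84 (SE 0.22, adjusted p = 0.0089). Rps12 stood at 1.82, 2.75 and 3.43 FPKM against 2.61, 4.68 and 7.71, a difference of -0.72 (SE 0.18, adjusted p = 0.0057). For both genes the ranges overlapped at one end.

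Among the distinct genes, 2 of 9 passed. Rps9, at the shoulder of the mRNA entry, stood at 33.5, 49.3 and 66.6 FPKM in the ascending controls against 50.3, 78.8 and 101 in the descending, a log2 difference of -0.70 (SE 0.19, adjusted p = 0.0094). Rps26 stood at 35.6, 64.6 and 82.0 FPKM against 61.9, 97.0 and 137, a difference of -0.68 (SE 0.21, adjusted p = 0.022). Rps3 differed by -0.46 (SE 0.18, adjusted p = 0.065) and Rps15 by -0.41 (SE 0.23, adjusted p = 0.17), neither passing. Rps27l was the nearest to no difference at -0.09 (SE 0.20, adjusted p = 0.77), with 12.8, 29.2 and 41.5 FPKM against 16.9, 25.3 and 46.2.

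Also called lower were Rps20, a head protein modified when ribosomes collide (-0.68), Rps18 (-0.62), Rps19 of the head (-0.49), Rps7 of the body, known to bind Mdm2 (-0.45), Rps15a of the body (-0.44) and Rps10 (-0.43), all at adjusted p from 0.0044 to 0.045 by limma. By place, 6 of 14 head genes and 5 of 16 body and platform genes were called, with medians of -0.47 and -0.41. Rps2 (-0.29), Rps23 (-0.19), Rps24 (-0.31) and Rps14 (-0.30) were among the smallest differences and did not pass.

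These counts depended on scaling and on single libraries. Median-of-ratios scaling moved the median of all genes from -0.14 to -0.0082 and the share of all calls that are lower from 66.3% to 46.9% (53.8% with quantile normalization). Under it 4 of the 30 genes were called (13.3%, against 15.1% of all genes called lower), Rps12, Rps19 and Rps28 among them. Relative to the median of all genes, the members' median was -0.30 without and -0.29 with that scaling. Without descending control A2, 18 genes were called, with the share of all genes called in that fit not given here. By cage, the median difference was -0.23 in cage A, -0.43 in cage B and -0.68 in cage C, and 10, 2 and 0 genes were higher in the ascending colon.

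The same comparison in mutants, which shares no library with that in controls, gave lower values for 29 of 30 genes (26 with median-of-ratios scaling, under which Rps2, Rps14, Rps21 and Rps27l were above 0) and 8 calls. That is 26.7% of the genes, against 29.7% called lower and 14.3% called higher among 12203 genes tested, so the share of calls was near that of all genes. The median log2 difference was -0.31, against -0.16 for all genes, of which 8026 of 12203 had lower values. In all, 4 genes were called in both comparisons (36.4% of the calls in controls and 50.0% of those in mutants), Rps10, Rps12 and Rps18 among them.

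Rps18, which lies in the head facing the tRNAs, stood at 4.96, 7.12 and 10.8 FPKM in the 8 ascending mutants and 9.34, 13.0 and 17.9 in the 8 descending mutants. The log2 difference was -0.80 (SE 0.099, adjusted p = 6.3e-06), and it passed under each of the 29 alternatives. Rps12 stood at 1.89, 2.95 and 3.78 FPKM against 3.51, 4.77 and 7.11, a difference of -0.63 (SE 0.15, adjusted p = 0.0025). The groups of both genes overlapped only at their edges.

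Also called were Rps10 (-0.49), Rps29 (-0.49), Rps16 (-0.44) and Rps13 (-0.43), at adjusted p from 0.019 to 0.028 by limma. By place, 6 of 14 head genes and 2 of 16 body and platform genes were called. None of the 9 distinct genes was called, while 5 of 10 shared genes and 3 of 11 partly shared genes were. Rps27l was the 1 gene with a higher value in the ascending colon, 0.22 (SE 0.35, adjusted p = 0.64).

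The count of calls in this comparison changed when descending mutant C1 was left out. Without it 20 genes were called lower, and without it and ascending mutant B1 together 15 were, with a median difference of -0.36. Without descending mutant C3, 5 were called. Median-of-ratios scaling left 4 genes (13.3%, against 18.8% of all genes called lower), Rps12 and Rps18 among them, moved the median of all genes from -0.16 to -0.028 and the share of all calls that are lower from 67.4% to 49.7% (52.1% with quantile normalization). The members' median relative to all genes was -0.16 without and -0.13 with it. By cage, the median difference came to -0.28 (cage A), -0.52 (cage B) and -0.12 (cage C).

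**Figure D4:**
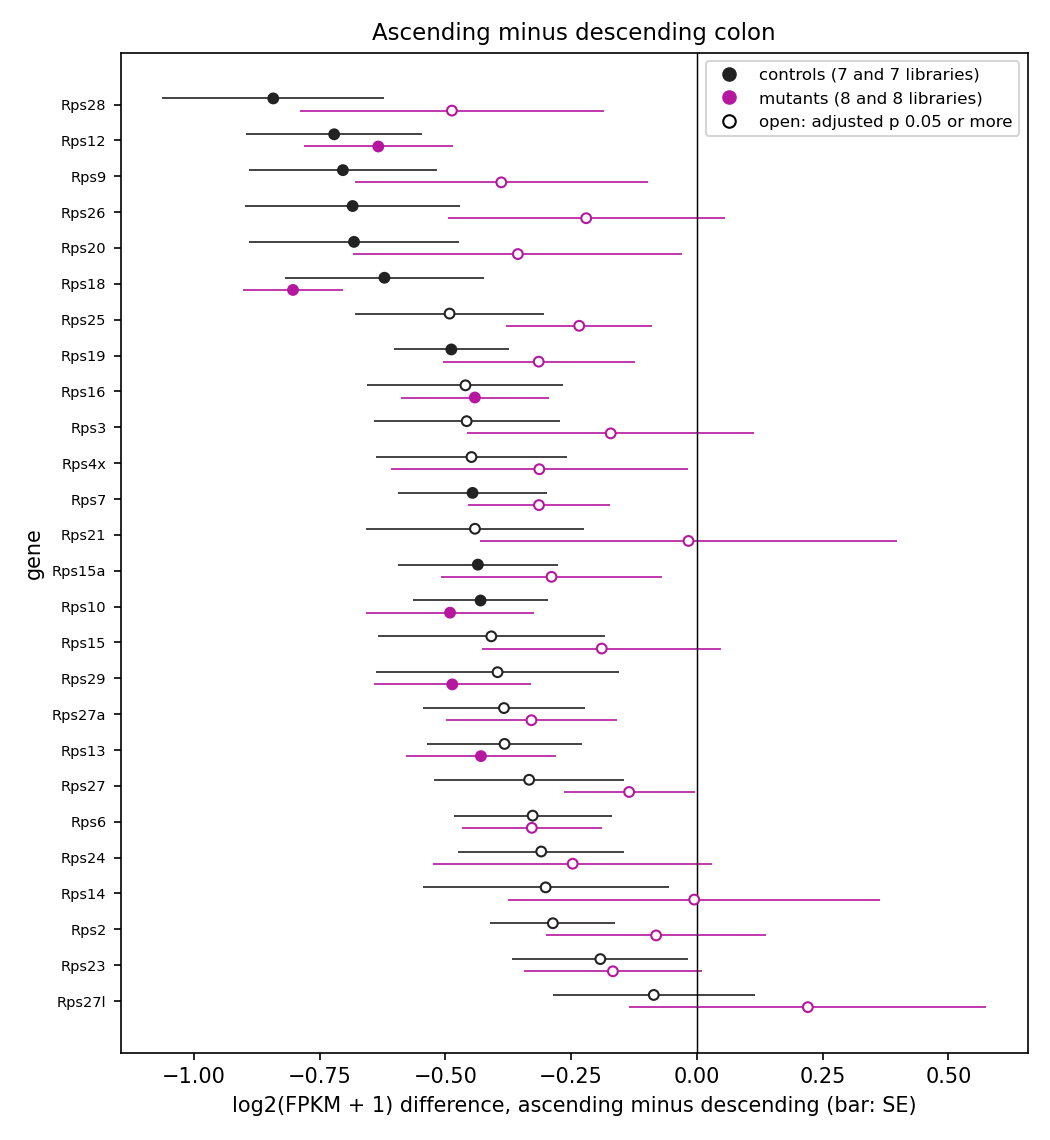
Log2(FPKM + 1) difference, ascending minus descending colon, with SE, for 26 of the 30 genes in controls (7 and 7 libraries) and mutants (8 and 8); filled points have an adjusted p under 0.05 (limma). All 26 values in controls and 25 in mutants are below 0 (25 and 22 with median-of-ratios scaling), with 10 and 6 filled, and Rps27l is the gene above 0 in mutants.

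Genes that build and use the ribosome were read beside the 30, from lists whose counts were not recomputed with median-of-ratios scaling. Of 37 genes for nucleolar ribosome assembly, 25 were called lower in controls and 28 in mutants, and none higher (median log2 difference -0.47 and -0.50), beside 25.1% and 29.7% of all genes called lower. Ncl, which encodes nucleolin, stood at 14.8 ± 2.48 FPKM (SD, n = 7) in ascending and 32.5 ± 6.02 (n = 7) in descending controls, a difference of -1.08 (SE 0.13). Tsr1, which matures the small subunit, differed by -0.96 (SE 0.093). Npm1, nucleophosmin, differed by -0.97 (SE 0.18). Adjusted p of these 3 genes was under 0.05 by limma.

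The counts that follow stand beside those same shares of all genes, which came to 15.1% and 18.8% with median-of-ratios scaling. Of 19 genes for RNA polymerase I and its factors, which make ribosomal RNA, 8 were called lower in controls and 9 in mutants, and none higher. Of 29 translation initiation genes, 15 and 10 were called lower, led in controls by Eif3a at -0.65 (SE 0.099). Of 9 elongation genes, 5 and 3 were called lower, with Eef2k, the kinase that inhibits eEF2, at -1.17 (SE 0.12) in controls. Of 76 mitochondrial ribosomal protein genes, 14 were called lower and none higher in controls, and 7 lower and 1 higher in mutants, both shares under those of all genes. Of 16 genes for growth control of ribosome synthesis, 4 were called lower in controls, and 6 lower and 1 higher in mutants. Of 11 genes of the p53 response, 2 were called higher and 1 lower in controls, and 3 higher and 1 lower in mutants.

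Also read were 8 ribosomal or associated proteins whose symbols fall outside the rule. Rpsa, a small-subunit protein, stood at 3.58 ± 0.551 FPKM in ascending and 5.94 ± 1.00 in descending controls (SD, n = 7 each), a log2 difference of -0.60 (SE 0.11). Rps3a1 differed by -0.77 (SE 0.19) and Tpt1 by -0.36 (SE 0.13), and these 3 of 8 were called lower by limma. Rack1, a scaffold on the head, differed by -0.49 (SE 0.22, adjusted p = 0.087), and Fau, which encodes a small-subunit protein fused to a ubiquitin-like one, by 0.15 (SE 0.18, adjusted p = 0.52). In mutants 1 of the 8 was called lower, and Rpsa differed by -0.34 (SE 0.17, adjusted p = 0.12).

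Cell markers moved with region too. All 6 dividing-cell markers were called lower in the ascending colon of controls and 5 of 6 in mutants, and their summed level was 26.9 to 70.9 FPKM in ascending controls, 76.0 to 117 in descending controls, 41.3 to 107 in ascending mutants and 101.5 to 216 in descending mutants. Smooth muscle markers were called lower for 1 and higher for 1 of 8 in controls, and lower for 7 and higher for 1 of 8 in mutants, with sums of 20.1 to 66.7 FPKM in ascending and 42.3 to 287 in descending mutants. Of 8 T cell markers listed, 7 were in the table, at sums of 11.9 to 54.8 FPKM in ascending and 0.83 to 2.34 in descending controls. The 5 tested were called higher in both comparisons. No T cell marker passed the filter among the descending libraries alone, so these 5 were tested only through their ascending values. Their calls therefore carry no weight. Of 8 colonocyte markers, 4 were called higher and 1 lower in controls, and 4 higher and 2 lower in mutants. They summed to 5701 to 10223 FPKM in ascending and 2375 to 6291 in descending controls, where Car1 alone averaged 4800 and 897. The part of these cell markers in the ribosomal protein values was not tested.

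Mutants were compared with controls within each region, and no ribosomal protein gene passed. In the ascending colon 0 of 30 genes were called, beside 0% of 12178 genes higher and 0% lower. One of the 30 had an unadjusted p under 0.05, as did 1396 of all genes. The median log2 difference, mutant minus control, was 0.06 against -0.05 for all genes, with 16 genes higher and 14 lower. With array quality weights 746 genes were called over the whole table and 0 of the 30, and without cage B 652 were called, among them Rps27l of the 30 (0.71, adjusted p = 0.043, limma).

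Rps27l had the highest difference, mutant minus control, in the ascending colon. It stood at 12.8, 29.2 and 41.5 FPKM (lowest, median and highest) in controls and 15.1, 36.4 and 54.2 in mutants, a log2 difference of 0.31 (SE 0.22, adjusted p = 0.60). Rps26 differed by 0.29 (SE 0.19), Rps23 by -0.31 (SE 0.18) and Rps13 by -0.22 (SE 0.13). The groups overlapped for each of these genes. All 9 distinct genes had differences above 0 (0.12 to 0.31), but these genes moved together over libraries and are not separate observations. Of 10 shared genes 7 had differences below 0, as did 7468 of all 12178 genes tested. By cage, the median difference of the 30 genes was -0.011 in cage A, -0.088 in cage B and 0.22 in cage C, and it changed sign without ascending mutant B2 (-0.032).

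In the descending colon 0 of 30 genes were called, beside 0% of 12219 genes in either direction, and 0 of the 30 had an unadjusted p under 0.05, as against 267 of all genes. The median log2 difference was -0.11, against -0.04 for all genes, with 26 of the 30 lower, as were 7605 of all 12219 genes tested. Rps23 differed by -0.35 (SE 0.20), Rps19 by -0.24 (SE 0.16) and Rps21 by -0.22 (SE 0.42), each with an adjusted p of 0.999 by limma. Rps27l differed by 0.094 (SE 0.39). Without descending mutant C1 the median was 0.04, with 17 genes higher and 13 lower. Within cages A, B and C the median came to -0.020, -0.0045 and -0.35, the last being the cage of that library.

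Whether the genotype difference itself differed between regions was tested by an interaction, in which 0 of 30 genes were called, beside 0% of 12353 genes in either direction, with 0 of the 30 and 198 of all genes at an unadjusted p under 0.05. The median was 0.16, with 25 of the 30 above 0, beside 5872 of all 12353 genes tested. Without descending mutant C1 the median was 0.014. The largest values were those of Rps26 at 0.39 (SE 0.38) and Rps21 at 0.38 (SE 0.53). In both regions smooth muscle and fibroblast markers had lower values in mutants for 8 of 8 genes each, and the 6 dividing-cell markers had higher values, none of them called.

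**Figure D5:**
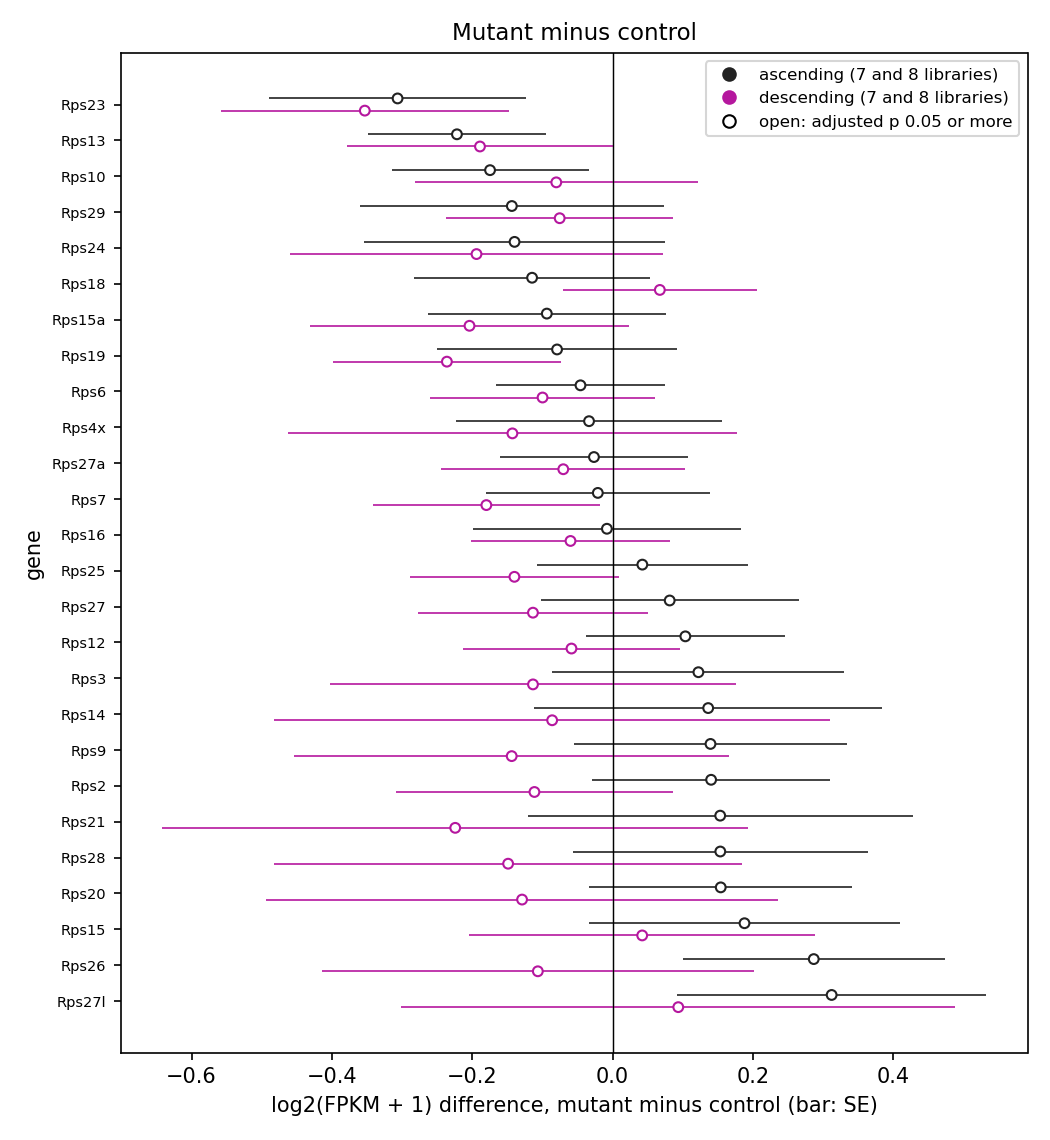
Log2(FPKM + 1) difference, mutant minus control, with SE, for 26 of the 30 genes in the ascending and the descending colon (7 controls and 8 mutants each). No point is filled, since no gene has an adjusted p under 0.05 (limma), and most SE bars cross 0.

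Cages were compared within each region by an F test over the 3 cages with genotype as covariate. In the ascending colon 0 of 30 genes were called, beside 1.32% of 12178 genes. Rps27a stood at 3.16 ± 0.495 FPKM in cage A, 2.38 ± 0.766 in cage B and 1.92 ± 0.418 in cage C (SD, n = 5 each, adjusted p = 0.21, limma). Rps25 was lowest in cage B, at 3.00 ± 0.858, 1.69 ± 0.639 and 2.36 ± 0.181 FPKM (adjusted p = 0.22, limma). Rps27l ranged from 26.4 to 54.2 FPKM in cage A, 15.1 to 34.4 in cage B and 12.8 to 39.0 in cage C (adjusted p = 0.26, limma), and was called without ascending mutant B1 (adjusted p = 0.034).

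In the descending colon 0 of 30 genes were called, beside 0.597% of 12219 genes. Rps2 had the smallest adjusted p (0.24), at 45.1 ± 6.66 FPKM in cage A, 28.1 ± 3.96 in cage B and 28.2 ± 9.60 in cage C (SD, n = 5 each, limma). Rps29 stood at 1.85 ± 0.614, 2.50 ± 0.722 and 3.41 ± 0.958 FPKM and Rps12 at 4.27 ± 1.22, 4.35 ± 1.05 and 6.39 ± 1.22. Rps18 stood at 15.7 ± 2.36, 13.0 ± 3.34 and 10.8 ± 0.984 FPKM. Among these 4 genes cage A was highest for Rps2 and Rps18, and cage C for Rps29 and Rps12. By limma with array quality weights, 5 genes were called in the ascending colon (Rps27a and Rps27l among them) and 6 in the descending colon (Rps2, Rps6, Rps7, Rps12, Rps13 and Rps29). The share of all genes called with those weights is not given here, so these counts are not read as a cage difference of the 30 genes.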

How the data were processed

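The authors deposited FPKM with 2 decimals for 14475 genes in 30 libraries. The submitters' processing notes name the build GRCm38 (mm10) and the tools STAR, DESeq2 and bcl2fastq 2.17. For the FPKM, the annotation, gene length and counting of multiply mapping reads are not given in the sources. FPKM was taken as log2(FPKM + 1) after a filter on a mean of at least 0.5 FPKM in the libraries compared, which kept all 30 members. Differences were fitted with limma 3.58.1 (R 4.3.3, moderated with a mean trend, cage as covariate), and p-values were adjusted by Benjamini-Hochberg over all genes tested. The fits were tested on simulated data. Identifiers were matched to GENCODE M21 (14472 of 14475, all 30 members).

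The members, lists and tests were chosen with earlier results of these data known. Named genes were the 5 highest and 5 lowest by level, the 5 largest rises and falls and the called genes of each comparison, the 5 smallest adjusted p for cages, the paralogs, and up to 3 genes per list. Some genes of the rule are counted in all totals but their own values are not reported here. Genes named outside these were chosen after their values were seen.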

Additional observations from a re-analysis of the deposited data

Results flagged for a closer look

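In groups of 7 or 8 libraries of one region and genotype, 5 of 124 sets of values (30 genes and their sum, in 4 groups) held a library far from the others by Dixon's criterion, where chance alone gives about 1 in 20. Rps15a stood at 1.76 FPKM in ascending mutant B1, the lowest of 8. Rps19 stood at 10.10 FPKM in descending mutant C1, the lowest of 8. Rps25, a head protein used in some internal initiation, stood at 4.22 FPKM in ascending mutant A3 and at 5.02 in descending mutant C3, the highest of 8 in each. Rps16 stood at 3.70 FPKM in descending control A2, the highest of 7. The summed level of the 30 genes passed this criterion in no group, descending mutant C1 at 416 FPKM included.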

How the results depend on the processing

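For the comparison of regions, the median difference of the 30 genes stayed below 0 under every alternative run, from -0.56 to -0.30 in controls and -0.46 to -0.16 in mutants, while the counts of calls moved. In controls (11 called) the count was 4 with median-of-ratios scaling, 19 with array quality weights, 4 without cage B, 1 without cage C, and 8 to 18 with one library left out. In mutants (8 called) it was 5 with a minimum mean of 2 FPKM, 4 with median-of-ratios scaling, 4 with quantile normalization, 17 with array quality weights, 5 without cage B, 2 without cage C, 15 without ascending mutant B1 and descending mutant C1 (an alternative added after seeing the data), and 5 to 20 with one library left out. Leaving out a cage leaves fewer libraries, and the cause of the other moves was not tested. Apart from median-of-ratios scaling, these counts stand without the share of all genes called in the same fit. They are not read as a result about the 30 genes.

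For genotype, no gene was called under any alternative but one: without cage B, Rps27l was called in the ascending colon (log2 difference 0.71, adjusted p = 0.043), 1 gene where there had been 0. The median changed sign in the ascending colon without cage C (-0.062) and without ascending mutant B2 (-0.032), in the descending colon without cage C (0.0086) and without descending mutant C1 (0.04), and in the interaction without cage C (-0.049). For cages, 5 genes were called in the ascending and 6 in the descending colon with array quality weights. Without ascending mutant B1, alone or with descending mutant C1, 1 (Rps27l) was called in the ascending colon, giving 0 to 1 with one library left out. These counts too stand without the share of all genes called in the same fit.

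Same-numbered libraries did not all deviate together (correlations of deviations from -0.276 to 0.405). Numbers were therefore not taken as pairs. With the replicate number as a block, 11 genes were called in controls and 7 in mutants, and 0 for genotype in each region and in the interaction, where the descending median moved from -0.11 to -0.26. The block holds the cage, so it could not be fitted for the cage comparisons.

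Depth limits the lowest genes: the estimated reads per library began at 0 for Rps23 and at 1.0 for Rps29.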
